A study of Danio rerio with 2 samples.

Results

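Cells carrying RNA of matrix collagens formed a small share of the cells sorted for *kdrl*:mCherry from aktΔ/Δ and WT zebrafish embryos at 24 hpf. Part of them also carried RNA of the mesenchymal factor *twist1a*. All were chosen by their unique molecular identifier (UMI) counts, each UMI standing for 1 captured mRNA molecule. A cell was taken when it held at least 2 UMIs of each of at least 2 of 5 genes, namely *col1a2*, *twist1a*, *col9a1a*, *col9a3* and *col2a1a*. It also had to hold fewer than 5 UMIs of *cnmd*, which marks notochord cells, and at most 2 UMIs summed over the endothelial genes *kdrl* and *cdh5*. In all, 64 of 25864 cells met the rule. They were 20 of 9464 cells in the aktΔ/Δ library, or 0.211% (0.129 to 0.326), against 44 of 16400 cells in the WT library, or 0.268% (0.195 to 0.360). The intervals overlap. The rule counts UMIs, however, and the median over all cells was 8247 UMIs in aktΔ/Δ and 5930.5 in WT. Among cells thinned to 5000 UMIs the share was 0.143% (9 of 6305) in aktΔ/Δ and 0.338% (32 of 9477) in WT. The chosen cells are called matrix-gene cells here. They proved to be of several kinds, and 12 of the 64 held no UMI of either *col1a2* or *twist1a*.

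The aktΔ/Δ embryos carry loss-of-function mutations of all 4 akt genes, *akt1*, *akt2*, *akt3a* and *akt3b*, and came from parents homozygous for 3 of the genes and heterozygous for *akt2*. The WT embryos lack these mutations. Both carry the Tg(kdrl:mCherry) transgene, the methods name a Tg(flt4:YFP; kdrl:mCherry) line, and no treatment is given for either. The reporter marks vessel endothelium with a red fluorescent protein, and the labels name all sorted cells as endothelial, so cells without *kdrl* or *cdh5* RNA were not the aim of the sort. The labels speak of dissected tissue and the methods of whole embryos, and the number of embryos pooled is not given in the sources used here. Each genotype has 1 library, so no test was made between them. The 95% intervals given are exact ones (Clopper-Pearson where a share is given, Poisson where a level is). They cover counting error only, and neither embryos nor cells vary in them.

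Fibroblasts and their mesenchymal precursors build the connective tissue of the embryo. Type I collagen fibrils, which hold the products of *col1a1a*, *col1a1b* and *col1a2*, give skin and fascia their strength, whereas type II, IX and XI collagens form the fibrils of cartilage and of the sheath round the notochord. In the trunk the sclerotome, the ventral part of the somite, gives rise to fibroblasts and to cells of the axial skeleton, and Twist factors mark embryonic mesenchyme of somite and neural crest origin.

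The matrix-gene cells held 206600 UMIs in aktΔ/Δ and 401288 in WT. The aktΔ/Δ cells had 983 to 24811 UMIs each with a median of 8453.5, against 737 to 28890 with a median of 7807 in WT, so the depth was close in both genotypes. The median of the other cells was 8247 UMIs in aktΔ/Δ and 5922.5 in WT. Of the mutated genes, only *akt2* was seen in these cells, with 3 UMIs in 2 aktΔ/Δ cells and 3 UMIs in 3 WT cells. *akt1*, *akt3a* and *akt3b* had 0 UMIs in both. The exact upper limit for each was 17.9 UMIs per 1000000 in aktΔ/Δ and 9.19 in WT. *akt1* was hardly counted in the other cells either, with 2 UMIs in aktΔ/Δ and 4 in WT. Its 0 here therefore cannot show that these cells lack *akt1* RNA. The other cells held 56 and 72 UMIs of *akt3a*, and 536 and 638 of *akt3b*, in aktΔ/Δ and WT. The mutations are small changes that lead to early stop codons, and counts of 3′ tags do not check them. The libraries share 225 cell barcodes, 1 of which belongs to an aktΔ/Δ matrix-gene cell and none to a WT one.

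The rule genes came together in 13 combinations. *col1a2* with *twist1a* and no other rule gene was the most common, in 8 aktΔ/Δ and 15 WT cells. *col9a3* with *col2a1a* alone was found in 3 aktΔ/Δ and 8 WT cells, and these with *col1a2* in 1 aktΔ/Δ and 7 WT cells. *col1a2* or *twist1a* reached 2 UMIs in 16 of the 20 aktΔ/Δ cells and 34 of the 44 WT cells. Thus 2 gene sets, type I collagen with *twist1a* and type II with type IX collagen, were joined by one rule and overlapped in part of the cells.

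Many members lie close to the limits of the rule. The second rule gene stood at exactly 2 UMIs in 9 aktΔ/Δ and 12 WT members, and 32 aktΔ/Δ and 92 WT cells were left out with that gene at 1 UMI. *cnmd* was at 3 or 4 UMIs in 2 aktΔ/Δ and 8 WT members, and 4 aktΔ/Δ and 7 WT cells were left out at 5 or 6. The sum of *kdrl* and *cdh5* was 0 in 16 aktΔ/Δ and 41 WT members, while 0 aktΔ/Δ and 3 WT cells were left out at 3 or 4 UMIs.

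Levels below are in CPM, counts per 1000000 UMIs after summing all cells of a kind. Among the rule genes, *col1a2* (LL0000005996) encodes the second chain of type I collagen. It ran over 0 to 30 UMIs per aktΔ/Δ cell with a median of 4, against 0 to 47 with a median of 4 in WT. *twist1a* (LL0000031388), a helix-loop-helix transcription factor, ran over 0 to 9 UMIs with a median of 1.5 in aktΔ/Δ and 0 to 15 with a median of 1 in WT. *col2a1a* (LL0000006005), the type II collagen chain, ran over 0 to 18 UMIs with a median of 1 in aktΔ/Δ, against 0 to 136 with a median of 2 in WT. *col9a3* (LL0000006032), a chain of the fibril-associated type IX collagen, ran over 0 to 12 UMIs with a median of 0 in aktΔ/Δ and 0 to 19 with a median of 2 in WT. *col9a1a* (LL0000006029), another type IX chain, was the scarcest, at no more than 3 UMIs in an aktΔ/Δ cell and 8 in a WT cell. The ranges of the cells overlapped for each of these genes. The highest cell was a WT cell each time, but WT had 44 members against 20, and these UMIs are not scaled for depth.

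RNA of the rule genes was not limited to the members. Notochord cells, taken as cells with at least 5 UMIs of *cnmd*, held more of the type II and IX collagens, with *col9a3* at 2024 CPM in aktΔ/Δ and 2494 CPM in WT and *col9a1a* at 114 CPM and 151 CPM. *col1a2*, at 247 CPM in aktΔ/Δ and 222 CPM in WT notochord cells, was lower there than in the members. In erythroid and endothelial cells it was scarce. *col1a2* had a UMI in 7 of 469 aktΔ/Δ erythroid cells, or 1.49% (0.602 to 3.05), and in 39 of 1487 WT erythroid cells, or 2.62% (1.87 to 3.57). Erythroid cells were taken as cells with at least 5 UMIs of *alas2*, a heme synthesis enzyme, and should lack *col1a2*. Their median depth was 32662 UMIs in aktΔ/Δ and 21342 in WT, above that of the matrix-gene cells. *col1a2* had a UMI in 16 of 20 aktΔ/Δ and 35 of 44 WT matrix-gene cells.

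**Figure D1:**
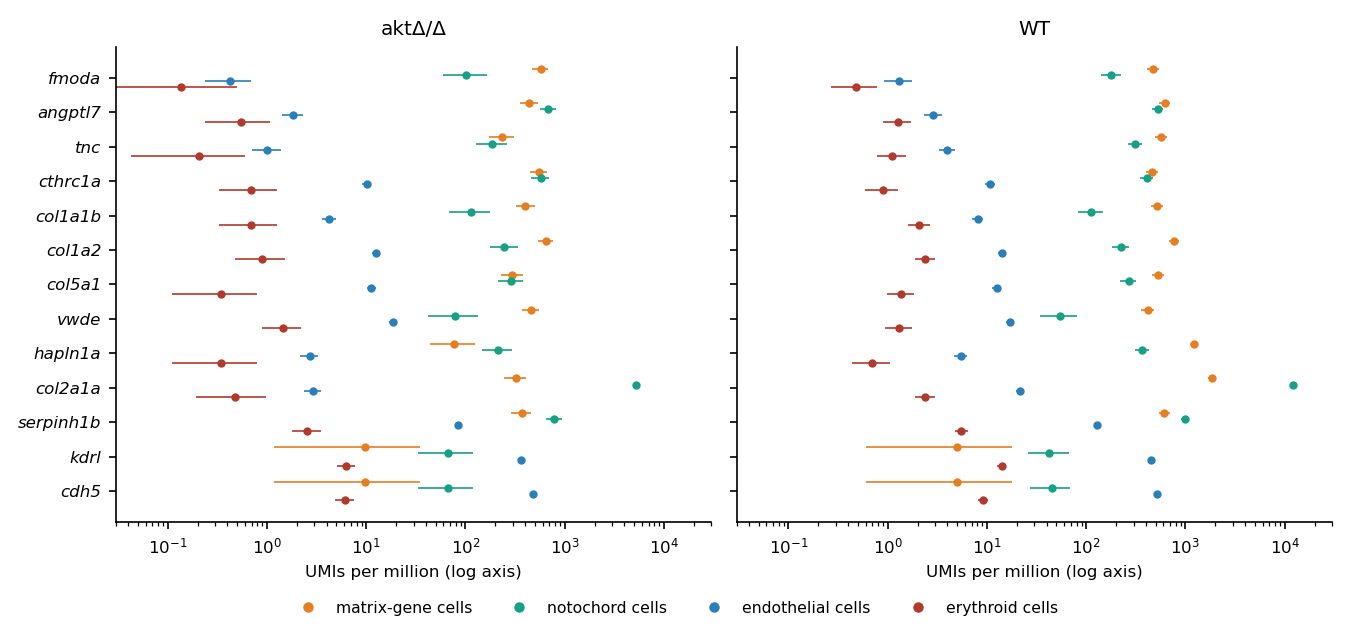
Levels of 10 leading genes, of *serpinh1b* and of *kdrl* and *cdh5* in matrix-gene, notochord, endothelial and erythroid cells of the aktΔ/Δ (left) and WT (right) library. Values are UMIs per 1000000 on a log axis, with exact Poisson intervals as bars. The genes *fmoda* to *vwde* lie at or above 232 UMIs per 1000000 in matrix-gene cells of both libraries and far lower in endothelial cells, which were taken as cells with at least 2 UMIs of each of *kdrl* and *cdh5*, so that the levels of *kdrl* and *cdh5* are set by the choice of cells. *angptl7* and *cthrc1a* are about as high in notochord cells.

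The genes that stood furthest above the other cells of the same library were mostly genes of collagens and other secreted matrix proteins. Every gene of these cells counts as used by the choice of the cells, so this is a description with no test. *fmoda*, which encodes the fibril-binding proteoglycan fibromodulin, stood 170-fold above the other cells in aktΔ/Δ and 106-fold in WT. It was seen in only 9 of 20 aktΔ/Δ and 15 of 44 WT members, with a median of 0 UMIs in both. In aktΔ/Δ 1 cell held 52 of its 118 UMIs, and in WT 1 cell held 99 of 190. *angptl7*, a secreted angiopoietin-like factor, stood 70.9-fold above them in aktΔ/Δ and 81.5-fold in WT. *tnc*, the matrix glycoprotein tenascin C, stood 51.4-fold above them in aktΔ/Δ and 68.7-fold in WT. *cthrc1a*, a secreted protein with a collagen triple helix repeat, stood 50.6-fold above them in aktΔ/Δ and 41.4-fold in WT. They head the genes with at least 200 UMIs when ranked by the lower of the folds of the libraries.

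The type I and type V fibrillar collagens followed. *col1a1b* stood 42.0-fold above the other cells in aktΔ/Δ and 29.8-fold in WT. *col1a2* itself stood 31-fold above them in aktΔ/Δ and 28.3-fold in WT, and *col1a1a* 33.1-fold in aktΔ/Δ and 21.6-fold in WT. *col5a1*, whose product starts type I fibrils, stood 27.1-fold above them in aktΔ/Δ and 37.8-fold in WT. Over all 2728 genes with at least 20 UMIs in the members, 314, or 11.5%, stood at least 2-fold above the other cells in both libraries. All 9 fibrillar collagen genes and all 5 fibril-associated ones with that many UMIs did so, when the rule genes are left aside. The cells were chosen by matrix genes, so these counts are a description with no test.

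The remaining leading genes described here were *vwde*, *col8a1a*, *hapln1a*, *ctgfa*, *col11a1a*, *pmp22a*, *fstl1a*, *tgfbi* and *mfap2*, beside the rule genes *col9a3* and *col2a1a*. *tgfbi* encodes a matrix protein induced by Tgfb, and *mfap2* a protein of microfibrils. *pmp22a*, a membrane protein known from myelin, was at 1985 CPM in aktΔ/Δ and 1226 CPM in WT, a log2 ratio of 0.69 (0.50 to 0.89). Without the 10 cells of one finer group, described below, it was at -0.14 (-0.42 to 0.13), and in the other cells at 0.50.

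The genes that fold and cross-link collagen were described in the same way. Of 19 genes of that list with at least 20 UMIs, 15 stood at least 2-fold above the other cells in both libraries, against 11.5% of all genes. *serpinh1b*, the collagen chaperone Hsp47, was at 368 CPM in aktΔ/Δ matrix-gene cells and 616 CPM in WT ones, against 64.6 CPM in other aktΔ/Δ cells and 79.8 CPM in other WT cells. *fkbp7*, a prolyl isomerase of the endoplasmic reticulum, was at 286 CPM in aktΔ/Δ and 269 CPM in WT, against 24.6 CPM in other aktΔ/Δ cells and 22.3 CPM in other WT cells. *loxl2a*, a lysyl oxidase that cross-links fibrils, was at 29.0 CPM in aktΔ/Δ and 79.7 CPM in WT, against 1.34 CPM in other aktΔ/Δ cells and 1.5 CPM in other WT cells.

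Of 19 mesenchymal transcription factors with at least 20 UMIs, the rule gene *twist1a* left aside, 14 stood at least 2-fold above the other cells in both libraries, against 11.5% of all genes. *twist1b*, the paralog of *twist1a*, was at 150 CPM in aktΔ/Δ and 94.7 CPM in WT, against 1.38 CPM in other aktΔ/Δ cells and 1.53 CPM in other WT cells. *foxd1*, a forkhead factor, was at 92.0 CPM in aktΔ/Δ and 52.3 CPM in WT, against 1.49 CPM in other aktΔ/Δ cells and 2.24 CPM in other WT cells. *meox1*, a homeobox gene of the somite, was at 198 CPM in aktΔ/Δ and 284 CPM in WT, against 9.99 CPM in other aktΔ/Δ cells and 18 CPM in other WT cells. *tcf15*, another somite gene, was at 62.9 CPM in aktΔ/Δ and 105 CPM in WT, against 1.67 CPM in other aktΔ/Δ cells and 2.49 CPM in other WT cells.

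Among the markers of fibroblasts and dermal mesenchyme, 10 of 12 genes with at least 20 UMIs stood at least 2-fold above the other cells in both libraries, as did 5 of 6 sclerotome markers and 9 of 10 chondrogenic markers, against 11.5% of all genes. None of these markers is a rule gene, but the cells were chosen by matrix genes, so the counts are a description. Lists of other cell types were raised too, with 5 of 6 notochord markers, 3 of 4 of cranial neural crest mesenchyme and 2 of 2 of hypochord and floor plate. The rule itself keeps *kdrl* and *cdh5* low. The sum of 11 further endothelial genes was 184 CPM in aktΔ/Δ and 254 CPM in WT, against 3592 CPM in other aktΔ/Δ cells and 2803 CPM in other WT cells. How far the rule lowers these was not tested. The receptor genes *pdgfra* and *pdgfrb*, of mesenchyme and of mural cells, were seen in few cells, *pdgfra* in 5 aktΔ/Δ and 16 WT cells and *pdgfrb* in 3 aktΔ/Δ and 10 WT cells.

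The 64 cells were divided by graph clustering to describe how they vary among themselves. At the main setting there were 3 sub-clusters, and at a finer setting 7. Sub-cluster 1 held 42 cells, 15 of aktΔ/Δ and 27 of WT, and was mixed. Sub-cluster 2 held 16 cells, 5 of aktΔ/Δ, or 25% (8.66 to 49.1) of that library's members, and 11 of WT, or 25% (13.2 to 40.3). Sub-cluster 3 held 6 cells, all of WT, which are 13.6% (5.17 to 27.4) of its members. The count of 0 among 20 aktΔ/Δ cells allows a share of up to 16.8%, and the intervals of the genotypes overlap.

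Sub-cluster 2 carried the fibroblast program most fully. *col1a2* was present in each of its 16 cells, at 3 to 47 UMIs with a median of 13.5. *angptl7* was present in each as well, at 2 to 32 UMIs. *twist1a* was present in 15 of them, with a median of 5 UMIs. Its leading genes over the other members were *col1a1b* at 17.1-fold, *vwde* at 7.26-fold and *fmoda* at 5.81-fold, although 1 cell held 50.8% of its *fmoda* UMIs. The chaperone genes *calr* and *serpinh1b* led it too. The fibroblast list summed to 7354 CPM in it, against 1736 CPM in sub-cluster 1 and 2707 CPM in sub-cluster 3. The sub-clusters were formed from these same values, so this is a description. No *epcam* UMI was seen in it, and *col2a1a* gave 5 UMIs in all.

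At the finer setting sub-cluster 2 was divided in 2. One group of 9 cells, 2 of aktΔ/Δ and 7 of WT, was led by *col1a1b*, *col5a2a*, *angptl7*, *vwde* and *col5a1*, and *twist1a* was 5.87-fold above the other members there. The other group of 7 cells, 3 of aktΔ/Δ and 4 of WT, was led by *wnt11r*, *fmoda*, *socs3b*, *cyr61*, *meox1*, *rbp5* and *fabp3*, apart from *elavl4*, whose 59 UMIs lay in 1 WT cell. *wnt11r*, a ligand of the non-canonical Wnt pathway, was seen in 4 of these 7 cells. *rbp5* and *fabp3* encode carriers of retinol and fatty acids. Both groups held *col1a2*, and both genotypes were present in each.

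Sub-cluster 3 had another matrix. *hapln1a*, the link protein that binds hyaluronan to proteoglycans, ran over 38 to 98 UMIs in its 6 cells with a median of 71, and stood 67.5-fold above the other members. *col8a1a*, a short-chain network collagen, stood 65.1-fold above them. *ptx3a*, a pentraxin, stood 54.8-fold and *fxyd1*, a regulator of the sodium pump, 45.5-fold above them. *col2a1a* ran over 25 to 136 UMIs with a median of 66.5. *col1a2* was present in 5 of the 6 cells, at no more than 7 UMIs, and *twist1a* in 1. The 6 cells stayed together at the finer setting and with 10 principal components. With a lower minimum of UMIs at the finer setting they were led by *cd59*, *ldlrad2* and *matn3b*, of which the other members held 0 UMIs.

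The chondrogenic and the notochord lists were both high in sub-cluster 3, with 67 to 143 and 39 to 167 UMIs per cell. The hypochord and floor plate list gave fewer UMIs there, at 1 to 21 per cell. It summed to 1317 CPM, against 499 CPM in sub-cluster 1 and 373 CPM in sub-cluster 2, and its *foxa1* was seen in 4 of the 6 cells. Values of the notochord cells, 21 of aktΔ/Δ and 51 of WT, stand beside these. *tbxta*, the notochord T-box factor, was at 241 CPM in aktΔ/Δ and 831 CPM in WT notochord cells, and *hapln1a* at 211 CPM and 366 CPM. In the 6 cells of sub-cluster 3 *tbxta* had 0 UMIs, *hapln1a* was at 10013 CPM and *col8a1a* at 8168 CPM. Over all matrix-gene cells *tbxta* was at 19.4 CPM in aktΔ/Δ and 7.48 CPM in WT, and *hapln1a* at 77.4 CPM and 1211 CPM. *ldlrad2* and *cd59* had 0 UMIs in the notochord cells of both genotypes, but *matn3b* had 2 UMIs in the aktΔ/Δ and 20 in the WT ones, and *col8a1a* was at 1319 CPM and 2967 CPM there. Sub-cluster 3 is left without a cell type name.

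**Figure D2:**
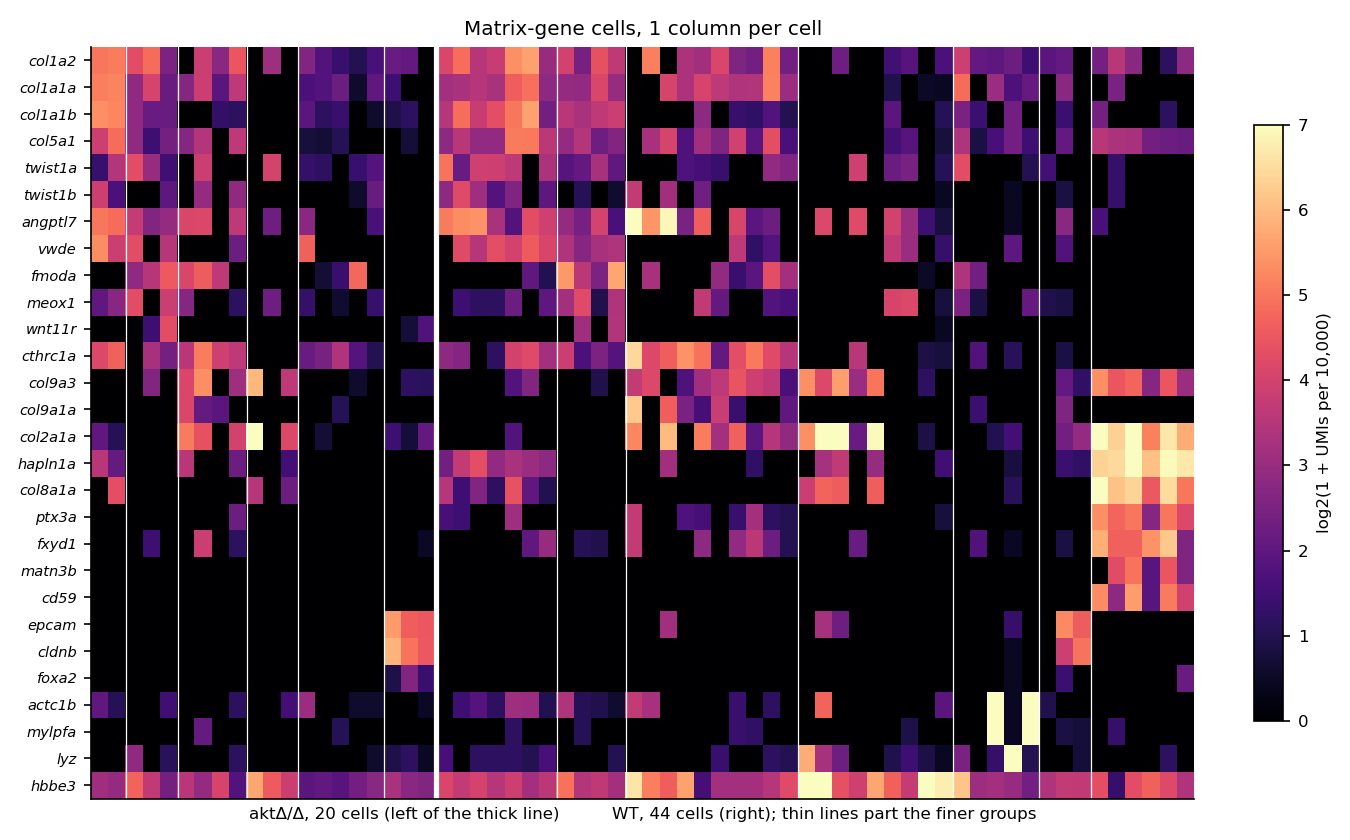
Levels of 28 genes in each matrix-gene cell, as log2(1 + UMIs per 10,000), with the 20 aktΔ/Δ cells left of the thick line and the 44 WT cells right of it. Colours stop at 7. Thin lines part the finer groups, in the order *col1a1b*, *fmoda*, *cthrc1a* with *col9a3*, the unnamed groups of 12 and of 10 cells, *epcam* cells and, in WT only, the *hapln1a* cells of sub-cluster 3.

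Sub-cluster 1 held several kinds of cell. At the finer setting 14 of its cells, 4 of aktΔ/Δ and 10 of WT, were led by genes that included *cpn1*, *cthrc1a*, *dusp5*, *col9a3* and *tgfbi*. *cthrc1a* was seen in each of these 14 cells, and *col9a3* in 12. A further 6 cells, 3 of each genotype, were led by the epithelial genes *cldnb*, *epcam*, *krt92* and *elovl7b*. Of these, 5 cells held 35 to 54 UMIs of *epcam*, an epithelial adhesion gene, and 3 of the 5 were of aktΔ/Δ. The endoderm and floor plate factor *foxa2* was seen in each of those 3 aktΔ/Δ cells, at 1 to 8 UMIs. A WT cell of the 5 held it too, at 2 UMIs. A group of 12 cells, 3 of aktΔ/Δ and 9 of WT, was led by *si:ch73-23l24.1*, seen in 6 of the 12 cells, ahead of globin genes such as *hbbe3*, of whose UMIs 80.3% lay in 1 cell. A group of 10 cells, 5 of each genotype, was led by muscle genes such as *myhz1.3*, seen in 2 of the 10 cells. Both groups are left unnamed. The group of 10 held 42.1% of the UMIs of the aktΔ/Δ members and 22.3% of those of WT, and its 5 aktΔ/Δ cells held at most 2 UMIs of *mylpfa*. One WT cell held 22 UMIs of *otomp* and 26 of *oc90*, genes of the otic vesicle.

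Marker RNA of muscle, blood and neutrophils was concentrated in 5 WT cells and in no aktΔ/Δ cell. The muscle actin *actc1b* gave 834 and 1291 UMIs in 2 of them, the neutrophil lysozyme *lyz* gave 1183 UMIs in 1, and the globin *hbbe3* gave 297 and 1661 UMIs in the others. These cells held 19737 to 28890 UMIs each. Of the WT members, 4 fell in the highest 10% of doublet scores of their library, and 2 of these 4 were among the 5 cells. Of the aktΔ/Δ members, 0 did. No cell was removed as a doublet. In the comparison of genotypes below, all members gave 179 genes at least 2-fold higher (6.56%) and 375 lower (13.7%) of 2728. Without the cells in the highest 10% of scores, 173 were higher (6.98%) and 355 lower (14.3%) of 2477. Without the 5 cells 147 were higher (6.4%) and 324 lower (14.1%) of 2298. Erythroid RNA was present in every member, at 5 to 47 UMIs per cell with a median of 21 in aktΔ/Δ and 16 to 5856 with a median of 43.5 in WT. In the other cells the erythroid list was likewise lower in aktΔ/Δ, at 50660 CPM, than in WT, at 80396 CPM.

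The aktΔ/Δ members were then set against the WT members. Of 14019 genes with a UMI, 2728 had at least 20 UMIs over both and were compared. In aktΔ/Δ, 179 genes were at least 2-fold higher, which is 6.56% of those compared, and 375 were at least 2-fold lower, which is 13.7%. The median log2 ratio of aktΔ/Δ to WT over these genes was 0.07. Scaling by TMM shifted that median to -0.11 and gave 119 genes higher and 443 lower, so that lower genes made up 78.8% of the calls rather than 67.7%. The log2 interval excluded 0 for 634 genes. Single cells carried much of this: 117 of the genes past 2-fold, 109 of them lower, had at least 50% of their UMIs in 1 cell.

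The comparison was repeated without 16 cells that had been singled out after their values were seen. These were the 5 WT cells rich in *actc1b*, *lyz* or *hbbe3*, the 6 cells of sub-cluster 3 and the 5 cells rich in *epcam*. These were 3 aktΔ/Δ and 13 WT cells, and no cell belonged to more than 1 of the sets. This left 17 aktΔ/Δ and 31 WT cells. Of 1767 genes compared there, 112 were at least 2-fold higher, or 6.34%, and 232 lower, or 13.1%. Of 139 genes lower in all members and still at 20 UMIs, 106 were again at least 2-fold lower. Of 104 higher ones, 65 were again at least 2-fold higher.

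Among genes with at least 200 UMIs, the lowest ratios belonged to muscle genes. *mylpfa*, a fast muscle myosin light chain, had 3 UMIs in aktΔ/Δ and 1527 in WT, a log2 ratio of -8.03 (-10.31 to -6.48). *mylz3*, *acta1b*, *ckmb*, *tpma* and *ckma* had 1 to 2 UMIs in aktΔ/Δ. *atp2a1*, *myhz1.3* and *myl1* had 0 UMIs in aktΔ/Δ, and against a floor of 3 UMIs over the library they were at least 109-fold, 88.9-fold and 69.5-fold lower. *lyz* had 9 UMIs in aktΔ/Δ and 1216 in WT, 96.6% of all its UMIs being in 1 cell. Without the cells named above, *mylpfa* had 3 UMIs in aktΔ/Δ and 5 in WT, and its log2 ratio of -0.32 (-3.01 to 2.04) lay within counting error.

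The type I collagens lay within 2-fold in both genotypes. *col1a2* was at 644 CPM in aktΔ/Δ and 775 CPM in WT, a log2 ratio of -0.27 (-0.57 to 0.03). *col1a1a* was at 528 CPM in aktΔ/Δ and 588 CPM in WT (-0.16, -0.50 to 0.18). *col1a1b* was at 402 CPM in aktΔ/Δ and 521 CPM in WT (-0.37, -0.76 to -0.00). Without the 16 cells *col1a2* was at a log2 ratio of -0.66 (-0.98 to -0.34). Within sub-cluster 2, where 5 aktΔ/Δ and 11 WT cells were compared, it was at 1958 CPM in aktΔ/Δ and 1861 CPM in WT (0.07, -0.33 to 0.46). *col1a1b* was at -0.83 (-1.23 to -0.45) without the 16 cells and at -0.03 (-0.45 to 0.39) in sub-cluster 2. None of these values reached 2-fold, and the sign for *col1a2* differed with the cells taken.

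The cartilage and notochord sheath collagens were at lower levels in the aktΔ/Δ members. *col2a1a* and *col9a3* are rule genes, so their levels depend on which rule genes let a cell in. Both stood at 2 UMIs or more in 6 of 20 aktΔ/Δ and 20 of 44 WT members. The part of this cell mix in the ratios was not tested. *col2a1a* was at 319 CPM in aktΔ/Δ and 1834 CPM in WT, a log2 ratio of -2.52 (-2.91 to -2.16). *col11a1a*, a chain of type XI collagen, was at 213 CPM in aktΔ/Δ and 890 CPM in WT (-2.06, -2.55 to -1.61). *col9a2* was at 38.7 CPM in aktΔ/Δ and 199 CPM in WT (-2.36, -3.62 to -1.32), and *col9a3* at 203 CPM and 429 CPM (-1.08, -1.60 to -0.58). Without the 16 cells *col2a1a* stood at -1.81 (-2.26 to -1.39) and *col11a1a* at -2.11 (-2.65 to -1.61), whereas *col9a3* stood at -0.78 (-1.38 to -0.21). Of the *col2a1a* UMIs of the remaining WT cells, 128 of 258 lay in 1 cell, and without that cell too *col2a1a* stood at -0.84 (-1.33 to -0.38), short of 2-fold, and *col11a1a* at -1.87 (-2.41 to -1.36). In sub-cluster 2 *col2a1a* had 3 UMIs in aktΔ/Δ and 2 in WT, too few for a direction.

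The lower *col2a1a* was not limited to the members. In the other cells, among which the notochord cells are counted, its log2 ratio was -1.98. In notochord cells *col2a1a* was at 5222 CPM in aktΔ/Δ and 12108 CPM in WT (-1.21, -1.32 to -1.11). *col9a3* was at a log2 ratio of -1.19 in the other cells, close to its value in the members. Notochord cells were rich in both genes and made up 21 of 9464 aktΔ/Δ cells and 51 of 16400 WT cells. Their part in the values of the other cells was not tested. Of 11 fibrillar collagen genes compared, 0 were at least 2-fold higher and 4 lower, with a median log2 ratio of -0.85. Of 7 fibril-associated collagens, 0 were higher and 4 lower, with a median of -1.04. Over all genes compared, 6.56% were higher and 13.7% lower. The lists hold 4 of the rule genes, which were chosen with these values known, so the counts are a description.

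The genes that led sub-cluster 3, which held no aktΔ/Δ cell, had low ratios. *hapln1a* was at 77.4 CPM in aktΔ/Δ and 1211 CPM in WT, a log2 ratio of -3.97 (-4.79 to -3.25), and *col8a1a* at 96.8 CPM in aktΔ/Δ and 977 CPM in WT (-3.33, -4.06 to -2.69). Without the 16 cells they stood at -1.42 (-2.32 to -0.60) and -0.85 (-1.68 to -0.07). *tnc* was at a log2 ratio of -1.29 (-1.77 to -0.84) in all members and was higher in aktΔ/Δ without the 16 cells, at 0.66 (0.00 to 1.32). *fstl1a*, a secreted follistatin-like glycoprotein, was at -1.46 (-2.0 to -0.97) in all members and at -0.60 (-1.24 to 0.01) without them. The direction for *tnc* thus rested on 6 WT cells. *cd59*, with 0 UMIs in aktΔ/Δ and 94 in WT members, was at 0.219 CPM in the other aktΔ/Δ cells and 44.9 CPM in the other WT cells as well.

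**Figure D3:**
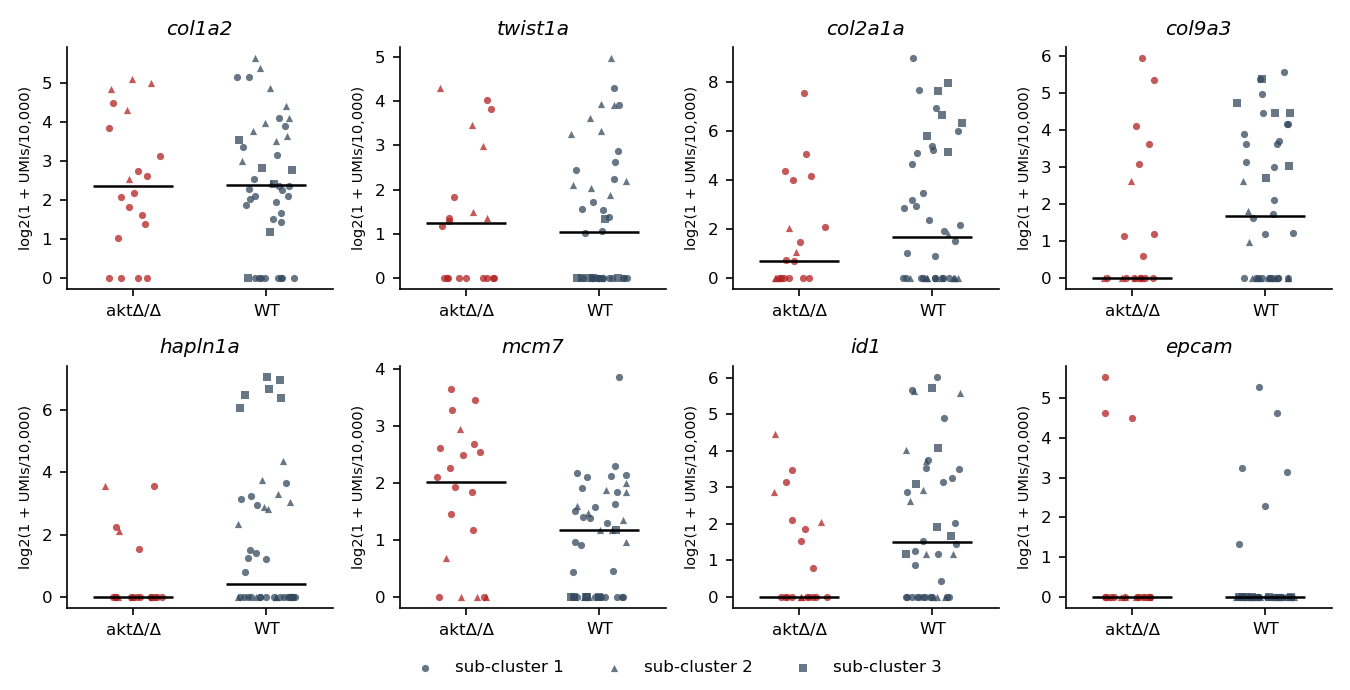
Levels of 8 genes in each of the 20 aktΔ/Δ (left in each panel) and 44 WT (right) matrix-gene cells, as log2(1 + UMIs per 10,000), with the median as a bar and the sub-cluster as the symbol. The cells of both genotypes overlap for every gene shown, and the squares of sub-cluster 3 lie highest for *hapln1a*.

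Among genes with at least 200 UMIs, the highest ratios belonged to *cldnb*, *epcam* and *zfp36l1a*. *cldnb*, a claudin of tight junctions, was at 813 CPM in aktΔ/Δ and 157 CPM in WT, a log2 ratio of 2.37 (1.95 to 2.81), from 3 cells in each genotype. *epcam* was at 692 CPM in aktΔ/Δ and 219 CPM in WT (1.66, 1.27 to 2.06), from 3 aktΔ/Δ and 6 WT cells. *zfp36l1a*, which encodes an RNA-binding protein that destabilizes mRNAs, was at 576 CPM in aktΔ/Δ and 204 CPM in WT (1.5, 1.08 to 1.92). Of 5 epithelial markers compared, 3 were at least 2-fold higher and 0 lower, against 6.56% and 13.7% of all genes. Without the 16 cells *zfp36l1a* stood at 0.22 (-0.56 to 1.0). The other genes with the highest ratios among those with 200 UMIs, *syncrip*, *hdac1*, *snu13b*, *pfn2l*, *nucks1a*, *krt18a.1* and *anp32a*, did not reach 2-fold in all members, with log2 ratios of 0.77 to 0.93. In the other cells these ran from -0.26 for *snu13b* to 0.70 for *krt18a.1*, with *nucks1a* at 0.68. There *zfp36l1a* stood at 0.65, *cldnb* at 0.10 and *epcam* at -0.29.

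Of 16 S phase genes compared, 4 were at least 2-fold higher in aktΔ/Δ and 0 lower, against 6.56% and 13.7% of all genes. *mcm7*, a subunit of the replicative helicase, was at 392 CPM in aktΔ/Δ and 132 CPM in WT, a log2 ratio of 1.57 (1.05 to 2.1). It was seen in 15 of 20 aktΔ/Δ cells and 28 of 44 WT cells, at 0 to 17 UMIs with a median of 2.5 and at 0 to 6 with a median of 1. *mcm6* was at 150 CPM in aktΔ/Δ and 49.8 CPM in WT (1.59, 0.73 to 2.48), *mcm3* at 136 CPM and 52.3 CPM (1.37, 0.50 to 2.26) and *cdca7a* at 121 CPM and 52.3 CPM (1.21, 0.31 to 2.12). These 4 were the genes past 2-fold, and the median log2 ratio of the list was 0.63. *pcna*, the sliding clamp of DNA polymerase, was at 726 CPM in aktΔ/Δ and 588 CPM in WT (0.30, -0.00 to 0.61). In the other cells *mcm7* stood at 0.32. The calls rested on the finer group of 10 cells. Its 5 aktΔ/Δ cells held 48 of the 81 *mcm7* UMIs of aktΔ/Δ and its 5 WT cells 6 of the 53 of WT. Those 5 WT cells included the cells with 834 and 1291 UMIs of *actc1b* and the cell with 1183 UMIs of *lyz*. The cells of both genotypes in this group were therefore not alike. Without that group, 0 of 16 S phase genes were at least 2-fold higher and 2 lower, against 5.19% and 12.7% of all genes. Their median was -0.02, and *mcm7* stood at 0.87 (0.18 to 1.55).

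Genes of G2 and M phase gave another picture. Of 19 compared, 0 were past 2-fold in either direction in all members, against 6.56% higher and 13.7% lower of all genes. The median log2 ratio was -0.36, but the summed level of the list was higher in aktΔ/Δ, at 5561 CPM against 4757 CPM in WT. *top2a*, a topoisomerase of dividing cells, was at 96.8 CPM in aktΔ/Δ and 97.2 CPM in WT (-0.01, -0.86 to 0.81). *plk1*, a mitotic kinase, was at 72.6 CPM in aktΔ/Δ and 115 CPM in WT (-0.66, -1.61 to 0.21). Without the 16 cells 6 of 16 S phase genes were at least 2-fold higher with a median of 0.87, and 7 of 14 G2 and M phase genes were at least 2-fold lower with a median of -1.17. Of all genes in that set, 6.34% were higher and 13.1% lower. Without the group of 10 cells, 1 of 17 G2 and M phase genes was higher and 0 lower, with a median of 0.06. All genes gave 5.19% higher and 12.7% lower there. In sub-cluster 2, with 5 aktΔ/Δ cells, *mcm7* was at 0.25 (-1.29 to 1.63).

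*id1*, a target of Bmp signalling that restrains helix-loop-helix factors, was lower in aktΔ/Δ. It was seen in 9 of 20 aktΔ/Δ cells, at 0 to 25 UMIs with a median of 0, against 30 of 44 WT cells, at 0 to 94 with a median of 1. The level was 281 CPM in aktΔ/Δ and 1126 CPM in WT, a log2 ratio of -2.0 (-2.42 to -1.61). Without the 16 cells *id1* stood at -3.47 (-4.25 to -2.78), in sub-cluster 2 at -2.10 (-2.97 to -1.33), and in the other cells at -0.41. Without the group of 10 cells it stood at -1.56 (-1.98 to -1.16). Few cells held much of its RNA. The 3 aktΔ/Δ cells rich in *epcam*, which are among the 16, held 40 of the 58 *id1* UMIs of aktΔ/Δ. Without the 16 cells 18 UMIs were left in aktΔ/Δ and 266 in WT. In sub-cluster 2, 1 WT cell held 94 of the 178 *id1* UMIs of both genotypes. The cells of both genotypes overlapped.

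In the Tgfb and Bmp list 14 genes were compared. Of these, 1 was at least 2-fold higher and 7 lower in aktΔ/Δ, against 6.56% and 13.7% of all genes. The median log2 ratio was -1.04. The lower ones were *id1*, *id2a*, *smad7*, *fsta*, *fstl1a*, *ctgfa* and *cyr61*. With the 16 cells left out, 1 of 13 was higher and 4 lower, against 6.34% and 13.1% of all genes. *ctgfa* at -0.91 (-1.49 to -0.35) and *fstl1a* at -0.60 no longer reached 2-fold. *id2a* was at 43.6 CPM in aktΔ/Δ and 110 CPM in WT (-1.33, -2.55 to -0.28). The matricellular genes *cyr61* and *ctgfa*, known targets of Yap, belong to the list, and *cyr61* was at 62.9 CPM in aktΔ/Δ and 262 CPM in WT (-2.06, -3.01 to -1.22). *ctgfa* was at 194 CPM in aktΔ/Δ and 506 CPM in WT (-1.39, -1.91 to -0.89), and in the other cells at -1.47. The member that was higher was *grem2b*, a secreted Bmp antagonist, at 106 CPM in aktΔ/Δ and 29.9 CPM in WT (1.83, 0.75 to 2.98). *tgfb3* and *bmp5*, which encode ligands, were at 0.01 (-1.03 to 0.99) and 0.43 (-0.98 to 1.77).

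Of 20 mesenchymal transcription factors compared, 2 were at least 2-fold higher and 2 lower, against 6.56% and 13.7% of all genes. The median log2 ratio was -0.04. *twist3* and *msx1b* were the higher ones, at 1.66 (0.28 to 3.13) and 1.1 (-0.28 to 2.49), the interval of *msx1b* reaching below 0. *twist2*, of dermal mesenchyme, had 2 UMIs in aktΔ/Δ and 25 in WT (-2.69, -5.81 to -0.68). *nkx3.2*, a sclerotome and joint cartilage factor, had 4 UMIs in aktΔ/Δ and 38 in WT (-2.29, -4.24 to -0.82). *twist1a* was at 194 CPM in aktΔ/Δ and 289 CPM in WT (-0.58, -1.13 to -0.05), and *meox1* at -0.52 (-1.07 to 0.01). Without the cells singled out above, 17 aktΔ/Δ and 31 WT cells were left. There 1 of 15 of these factors was at least 2-fold higher and 6 lower, with a median of 0.15. All genes gave 6.34% higher and 13.1% lower in that set. *twist1a* stood at -1.03 (-1.59 to -0.50) there, past 2-fold, so the count of lower factors depended on the cells taken.

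The other matrix lists also leaned to lower values. Of all genes, 6.56% were at least 2-fold higher and 13.7% lower. Of 9 proteoglycan and hyaluronan genes 5 were at least 2-fold lower and 0 higher, with a median of -1.11, and *sdc2*, a cell surface proteoglycan, was at 53.2 CPM in aktΔ/Δ and 164 CPM in WT (-1.63, -2.70 to -0.70). Of 10 fibronectin, fibrillin and matricellular genes 5 were lower and 0 higher, with a median of -0.93. *postnb*, periostin, went the other way, at 440 CPM in aktΔ/Δ and 257 CPM in WT (0.78, 0.36 to 1.2), short of 2-fold. Of 19 genes that fold, secrete and cross-link collagen 5 were lower and 0 higher, with a median of -0.36. They were the hydroxylase genes *p4ha1b*, *p4ha2*, *plod1a* and *plod2* and the oxidase gene *loxl2a*. *serpinh1b* stood at a log2 ratio of -0.74 (-1.13 to -0.37). Of 7 basement membrane genes 1 was higher and 1 lower. Without the cells singled out above, 17 aktΔ/Δ and 31 WT cells were left. There 3 of 6 proteoglycan and hyaluronan genes were lower, with a median of -0.91. So were 3 of 8 fibronectin, fibrillin and matricellular genes (-0.46) and 4 of 15 genes that fold, secrete and cross-link collagen (-0.75). In each list 0 were higher. All genes gave 6.34% higher and 13.1% lower there. The median thus rose for the proteoglycan and fibronectin lists and fell for the collagen folding one.

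**Figure D4:**
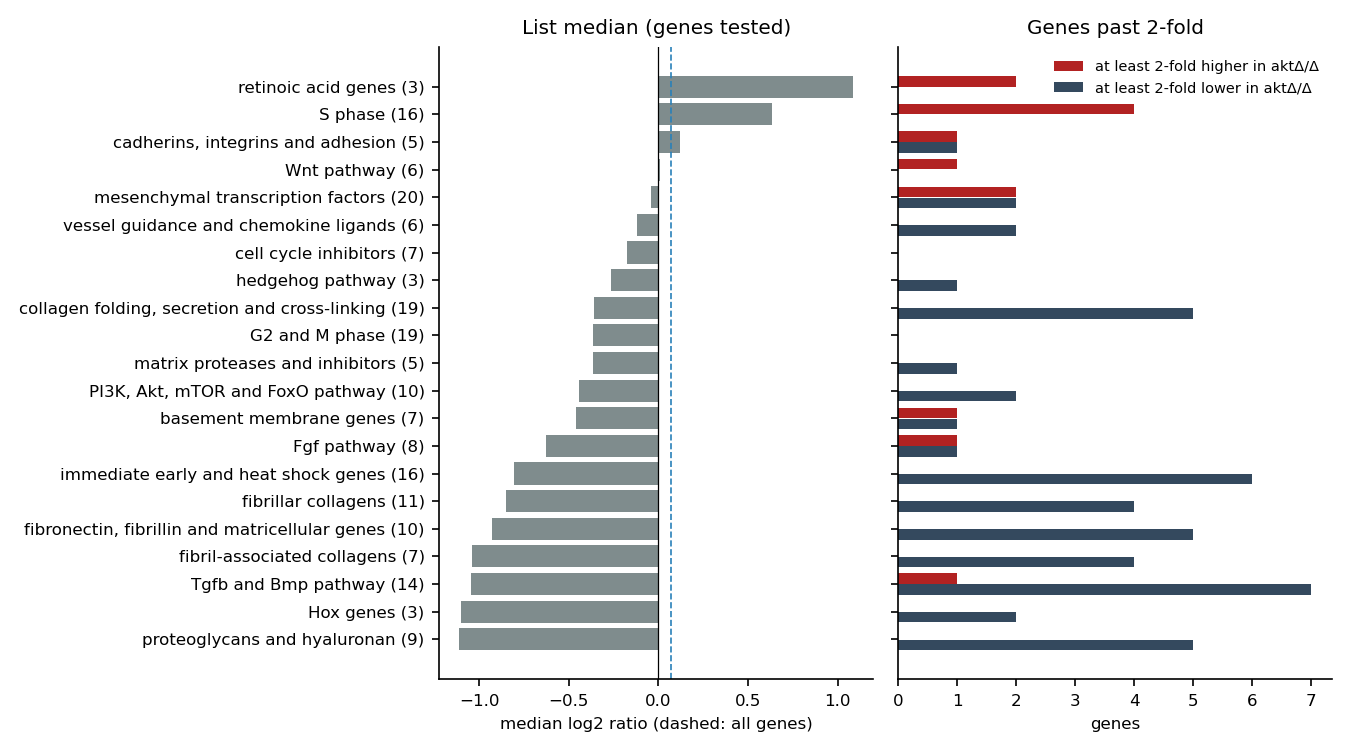
Median log2 ratio of aktΔ/Δ to WT in matrix-gene cells for each function list with at least 3 genes compared (left, number of genes in brackets), and the genes of each list at least 2-fold higher or lower in aktΔ/Δ (right). The dashed line is the median of all genes compared, 0.07, and the S phase list lies above it at 0.63 while the proteoglycan list lies lowest at -1.11.

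Signalling lists held few genes with enough UMIs, and 6.56% of all genes were at least 2-fold higher and 13.7% lower. In the retinoic acid list, *aldh1a2*, the enzyme that makes retinoic acid, was at 169 CPM in aktΔ/Δ and 79.7 CPM in WT (1.09, 0.35 to 1.83), and 2 of 3 genes were at least 2-fold higher. Of its 35 UMIs in aktΔ/Δ, 32 lay in 2 cells, and without the 16 cells *aldh1a2* stood at 0.59 (-0.15 to 1.34), the only gene of the list then compared. *wnt11r* was at 189 CPM in aktΔ/Δ and 67.3 CPM in WT (1.49, 0.74 to 2.25), but came from 4 aktΔ/Δ and 3 WT cells, and without cells with any *kdrl* or *cdh5* UMI it stood at -0.64. In the Wnt list 1 of 6 genes was higher and 0 lower, in the Fgf list 1 of 8 was higher and 1 lower, and in the hedgehog list 1 of 3 was lower. In the list of vessel guidance and chemokine ligands 2 of 6 were lower. One was *angpt1*, a ligand of the endothelial receptor Tie2, with 1 UMI in aktΔ/Δ and 50 in WT, of which 45 lay in sub-cluster 3, and the other *ntn1b*, a netrin, with 0 UMIs in aktΔ/Δ and 23 in WT. The chemokine gene *cxcl12b* was at 218 CPM in aktΔ/Δ and 189 CPM in WT (0.20, -0.36 to 0.75).

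In the PI3K, Akt, mTOR and FoxO list 10 genes were compared. Of these, 0 were at least 2-fold higher and 2 lower, against 6.56% and 13.7% of all genes. The median log2 ratio was -0.44. The lower ones were *igf2b*, an insulin-like growth factor, with 3 UMIs in aktΔ/Δ and 27 in WT (-2.21, -4.58 to -0.51), and *igfbp5b*, which binds such factors, with 4 and 21 UMIs (-1.43, -3.44 to 0.13). *ptena* and *ptenb*, the phosphatases that oppose PI3K, stood at -0.98 (-2.57 to 0.36) and -0.04 (-1.47 to 1.27). At 6 to 23 UMIs per gene and genotype, a change of these would not be detectable at this depth unless large.

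Immediate early and heat shock genes, which cell dissociation can induce, were compared as a sign of handling. Of 16 genes 0 were at least 2-fold higher and 6 lower in aktΔ/Δ, against 6.56% and 13.7% of all genes. The median log2 ratio was -0.80. *fosab* was at 1012 CPM in aktΔ/Δ and 994 CPM in WT (0.02, -0.22 to 0.27), while *junba* stood at -0.79 (-1.26 to -0.34). The list summed to 3427 CPM in aktΔ/Δ and 4852 CPM in WT members. In the other cells it summed to 1688 CPM in aktΔ/Δ and 2262 CPM in WT. Its part in the other results was not tested.

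A pair of genes differed alike in members and in all other cells. *si:dkey-85k7.7* had 1 UMI in aktΔ/Δ and 138 in WT members, a log2 ratio of -6.15 (-11.46 to -3.65), and stood at -6.23 in the other cells. *BX548028.1* was at 257 CPM in aktΔ/Δ and 27.4 CPM in WT members (3.23, 2.27 to 4.31), and at 3.49 in the other cells. Both were chosen after their values were seen, and they mark a difference between the libraries that is not particular to the matrix-gene cells.

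**Figure D5:**
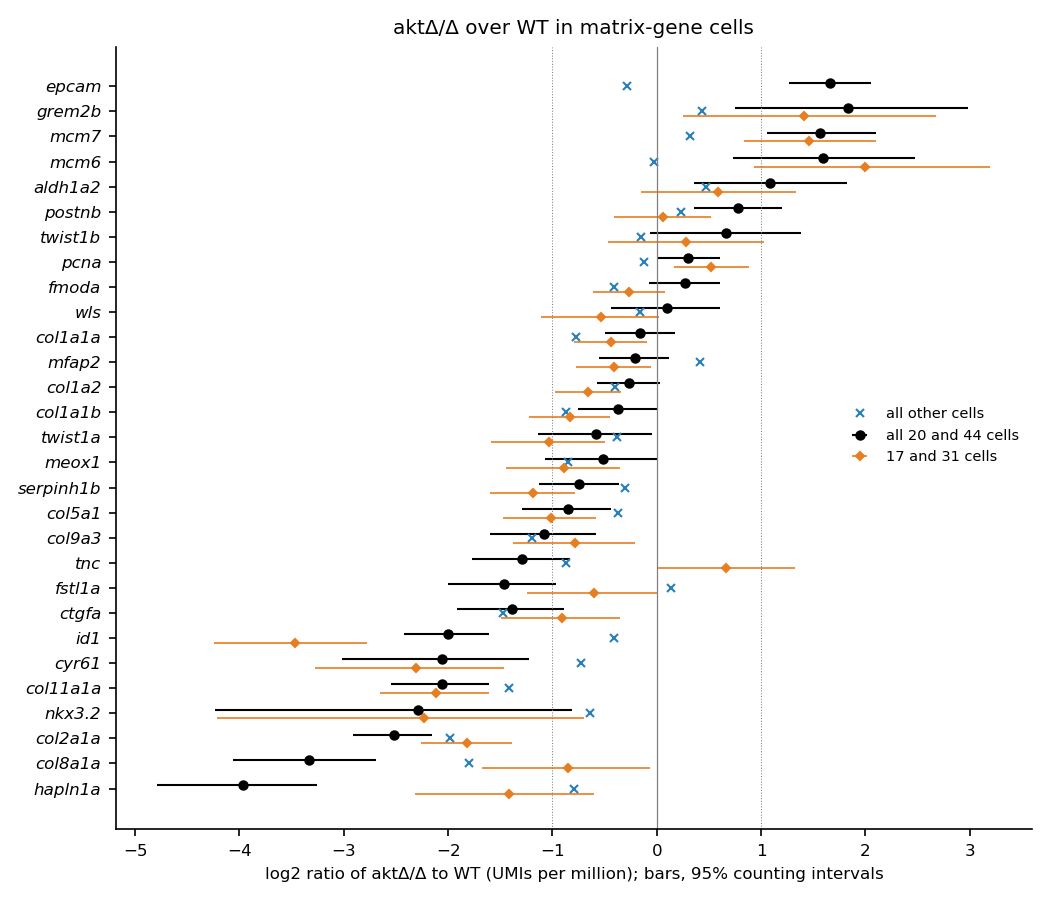
Log2 ratio of aktΔ/Δ to WT for 29 genes in all matrix-gene cells (black circles, 20 and 44 cells) and without the 16 cells named in the text (orange diamonds, 17 and 31 cells), with exact 95% counting intervals as bars, and in all other cells (blue crosses). Dotted lines mark 2-fold. *id1*, *col11a1a* and *mcm7* keep their side in both sets of members, whereas *tnc*, *fmoda* and *wls* change sides. *epcam* has too few UMIs for a diamond.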

How the data were processed

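Cells sorted for *kdrl*:mCherry at 24 hpf gave 1 droplet library for each genotype. The authors deposited UMI counts of genes by cells, per the labels written by Cell Ranger 5.0.0. The counts are whole numbers without normalization. Which genome build and annotation were used is not given in the sources used here, and the labels and the methods name different kit versions. Genes are named by the 36109 symbols of the files, and rows that share a symbol were summed.

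The cells, gene lists and comparisons were chosen with earlier results of these data known. Summed UMIs were scaled to 1000000, and log2 ratios of aktΔ/Δ to WT have intervals derived from the exact binomial (Clopper-Pearson) limits of the aktΔ/Δ share of UMIs. Genes with at least 20 UMIs over both genotypes were compared, and 2-fold was the call. With 1 library per genotype, no p-value was computed, and PCR or cell variation is not covered. Erythroid cells had at least 5 UMIs of *alas2* and at most 2 of *kdrl* plus *cdh5*, and notochord cells at least 5 of *cnmd*.

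Named genes were the rule genes, the akt genes, members of the lists, the 20 genes highest over other cells (by the lower of both folds) and the 10 highest and 10 lowest ratios, both among genes with at least 200 UMIs, and the leading genes of sub-clusters with at least 100 UMIs there. One gene that met this rule is not reported here. Of 727 list symbols 709 were found. Sub-clusters came from Leiden clustering in scanpy 1.11.5, with counts per 10000, 2000 variable genes, 20 components, 15 neighbours and resolution 0.5. Python 3.11.15, numpy 2.4.6, scipy 1.17.1, pandas 2.3.3 and edgeR 4.0.16 (TMM factors only) under R 4.3.3 were used. The intervals were tested on simulated data drawn as independent Poisson counts, the model they assume. Clustering of UMIs in single cells was not simulated, so coverage under it is not known. Doublet scores came from Scrublet, and no doublet was removed. Alternatives changed the rule, the scaling, the minimum of UMIs, the depth and the clustering.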

Additional observations from a re-analysis of the deposited data

How the results depend on the processing

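The share of matrix-gene cells in aktΔ/Δ was 0.116% with at least 3 UMIs of each rule gene and 0.127% with 0 UMIs of *cnmd*, and in WT it was 0.159% with 0 UMIs of *cnmd*. At an equal depth of 5000 UMIs it was 0.143% (9 of 6305 cells) in aktΔ/Δ and 0.338% (32 of 9477) in WT. The number of genes compared differed between settings. With TMM scaling 119 of 2728 genes, or 4.36%, were at least 2-fold higher. The number was 11 of 621, or 1.77%, with at least 100 UMIs and 1124 of 8444, or 13.3%, with at least 1 UMI in each library. It was 52 of 1203, or 4.32%, with members thinned to 5000 UMIs. Under the last 3 settings 80 (12.9%), 1344 (15.9%) and 170 (14.1%) genes were lower. Other settings were chosen after the data were seen. Sub-cluster 2 alone gave 33 higher (4.29%) and 86 lower (11.2%) of 769 genes. The set without 16 cells gave 112 (6.34%) and 232 (13.1%) of 1767. That set without 1 further WT cell rich in *col2a1a* gave 100 (5.69%) and 231 (13.2%) of 1756. The members without the finer group of 10 cells gave 108 (5.19%) and 265 (12.7%) of 2081. At a Leiden resolution of 1.0 there were 7 sub-clusters. In sub-cluster 2 alone the log2 ratios of *col2a1a*, *tnc*, *col8a1a* and *fstl1a* were 1.93, 1.44, 0.48 and 0.61, and the medians of the rule genes, the chondrogenic and the notochord list 0.00174, 0.32 and 0.91. *tnc* was at 0.48 without sub-cluster 3 and 0.66 without the 16 cells, where the epithelial median was -0.33, and they were at 0.64 and -0.27 without the further WT cell. *wnt11r* was at -0.64 without cells with *kdrl* or *cdh5*, and the Hox list at 0.68 in thinned cells. Of 974 recomputed values of named genes, 911 kept their sign. By size, 714 of the 974 stayed within the interval or bound of the main value and 252 moved outside it. The other 8 were past 2-fold in the main setting and changed sign. Some of these genes were named for extreme ratios and the alternatives share cells, so the counts are a description with no test. No paired analysis was possible because each genotype has 1 library. Depth limits every gene with few UMIs, and the spread between embryos was not measured.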
